A study of Arabidopsis thaliana with 24 samples.

Results

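UDP-glycosyltransferases of the plant UGT superfamily move a sugar, usually glucose, from a UDP-sugar onto small molecules such as hormones, flavonoids, lignin precursors and foreign chemicals. The added sugar makes the acceptor more soluble and often less active or storable in the vacuole, so the family is known for hormone balance, phenylpropanoid metabolism and detoxification. The number after UGT names the sequence group and the letter names the subfamily. Here 46 UGT genes were described on the ATH1 array of Arabidopsis thaliana, which holds 22810 probe sets. They were chosen by symbol, UGT followed by a digit, from probe sets that the platform annotation pairs with 1 gene, and UGT74B1 was left out. Within the family no measured value chose a gene, and each of the 46 had 1 probe set. The family itself was chosen with earlier results of these data known. Of the 50 probe sets with a UGT symbol, 3 list several genes and were not used. The 46 genes fall into 11 groups, with 9 genes in group 71, 8 in group 76, 7 in group 73, 5 each in groups 84 and 85, 4 in group 72, 3 in group 78, 2 in group 74 and 1 each in groups 80, 87 and 88. All 46 symbols were matched to a locus in the reference gene table.

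The series set the oas-a1.1 mutant against wild type (WT, accession Col-0). The mutant is the SALK_072213 insertion line in OASA1, the cytosolic O-acetylserine(thiol)lyase that makes cysteine. It is 1 allele, and no second allele or complemented line was analysed here. Plants of both genotypes grew hydroponically and were given CdCl2, or none, after 2 weeks of acclimation, and roots were collected at 18 h and shoots at 24 h of treatment. The concentration is given in micromolar in the series design and in millimolar in the sample protocols, 50 in both, so its unit is not settled here. Within each organ the groups were oas-a1.1 with cadmium, oas-a1.1 untreated, WT with cadmium and WT untreated, with 3 biological replicates each by the series design, 24 arrays in all. Roots and shoots thus differ in hours of treatment as well as in organ, which cannot be told apart. No cadmium response was tested against that of the other organ.

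Levels below are the deposited log2 values from RMA, a robust multi-array summary of the probes of a probe set, and a difference of 1 is a doubling. Probe sets bind with different strength, so levels were compared between samples within a gene and not between genes. Differences were tested with limma over all 22746 probe sets that are not controls, and a gene is said to have risen, fallen or passed where the Benjamini-Hochberg adjusted p over all of them was under 0.05. Arrays of 1 group correlated at 0.971 to 0.993 over all probe sets. The control probe set for 25S ribosomal RNA was below 7 on 8 of the 24 arrays and reached 11.96 on another, and in untreated WT shoots it was 4.95, 5.68 and 11.07. The summed level of 3 root marker genes was between 11.9 and 12.9 in roots, against 6.07 to 6.38 in shoots, and that of 6 photosynthesis genes was 9.09 to 10.1 in roots, against 14.35 to 15.03 in shoots, so the organ labels and the markers matched. The platform annotation used here pairs no probe set with OASA1, so the mutation itself was not checked on the arrays. In these whole organs, fewer cells of a type and less RNA per cell cannot be told apart.

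Most UGT genes differed in level between roots and shoots. In untreated plants, 27 of the 46 differed between WT roots and WT shoots (58.7%), against 44.2% of all probe sets. Of these, 11 were higher in roots and 16 were lower in roots. Over all 46 genes the median root minus shoot difference was -0.03, against 0.04 over all probe sets. The heat map of group means shows the organ split for each gene.

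**Figure D1:**
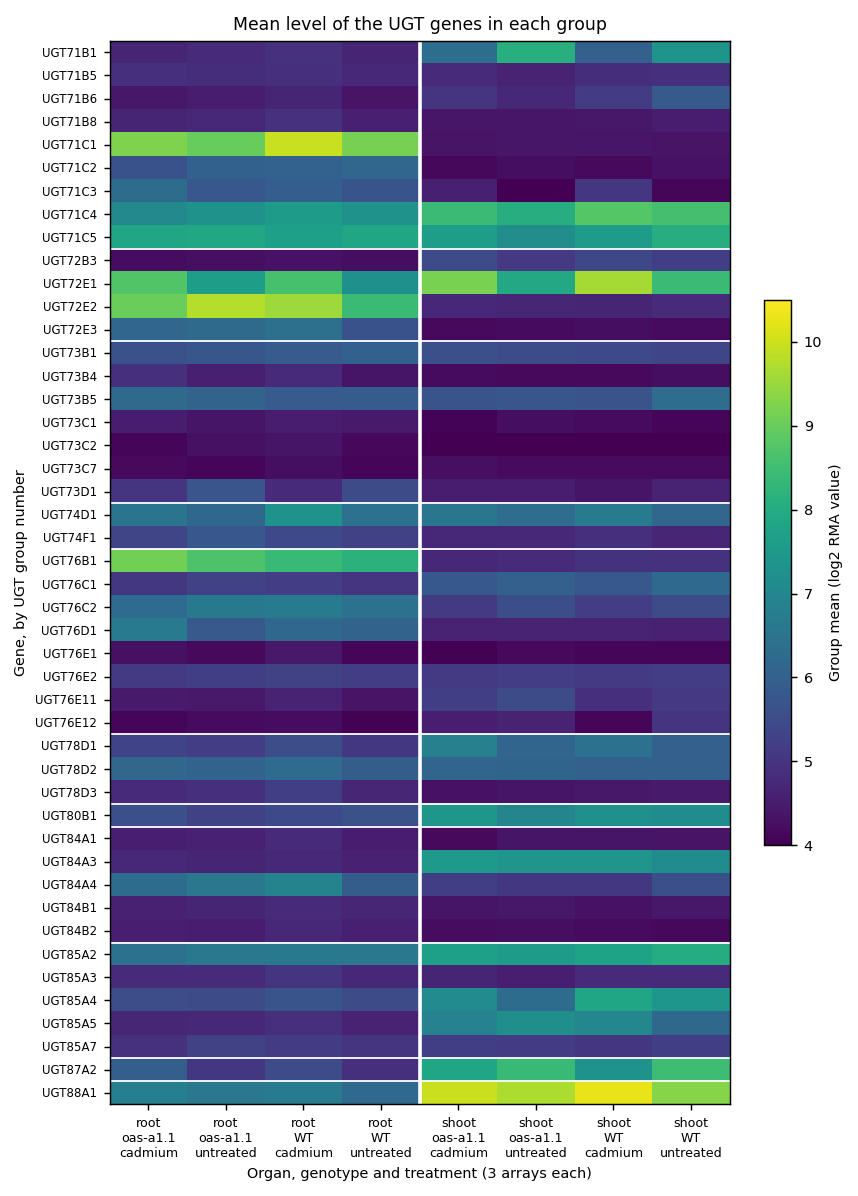
Mean log2 RMA value (colour) of the 46 UGT genes (rows, by group number) in the 8 groups (columns, 3 arrays each). Colours are read along a row, since probe sets differ in binding. UGT71C1, UGT72E2 and UGT76B1 are bright in the 4 root groups, and UGT88A1, UGT87A2, UGT84A3 and UGT71B1 are brighter in the 4 shoot groups.

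UGT71C1 had the largest organ difference of the 46 genes. It had 9.48, 9.09 and 8.91 in untreated WT roots, against 4.16, 4.54 and 4.31 in untreated WT shoots, a difference of 4.82 ± 0.14 (SE, n = 3 each, limma adjusted p = 1.34e-16). All 12 root arrays lay between 8.84 and 10.01, and all 12 shoot arrays between 4.16 and 4.54. Its neighbour on the chromosome, UGT71C2, was also higher in roots, by 1.84 ± 0.17 (adjusted p = 8.31e-09), with 5.10 to 6.22 over the root arrays and 4.07 to 4.40 over the shoot arrays. UGT71C3 was higher in roots as well, by 1.60 ± 0.31. UGT71C4, which lies next to UGT71C3 on another chromosome, ran the other way, with a root minus shoot difference of -1.24 ± 0.16. UGT71C5, which lies next to UGT71C4 and is an abscisic acid glucosyltransferase, did not pass (-0.22 ± 0.14).

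In group 72 the genes of lignin precursors were split by organ. UGT72E2, which glucosylates the monolignols coniferyl and sinapyl alcohol, had 8.55, 8.12 and 8.66 in untreated WT roots, against 4.88, 4.68 and 4.80 in untreated WT shoots. The difference was 3.66 ± 0.22 (SE, n = 3 each, adjusted p = 1.07e-11). No shoot array of any group came above 4.88, and no root array was below 8.12. UGT72E3, which acts on the same alcohols, was 1.44 ± 0.16 higher in roots. UGT72E1, which prefers the aldehyde forms, was lower in roots, with a root minus shoot difference of -1.15 ± 0.29 (adjusted p = 0.00222). UGT72B3 was also lower in roots (-0.95 ± 0.13).

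The remaining genes that were higher in roots were 3 of group 76, 2 of group 73 and 1 of group 74. UGT76B1, which glucosylates isoleucic acid, salicylic acid and N-hydroxypipecolic acid in defence, had 8.37, 8.18 and 7.96 in untreated WT roots, against 5.13, 4.72 and 4.96 in untreated WT shoots. This difference of 3.23 ± 0.28 (adjusted p = 4.43e-09) stands far outside the spread of the arrays. UGT76D1, which glucosylates dihydroxybenzoic acids derived from salicylic acid, was 1.47 ± 0.18 higher in roots. The 2 neighbouring cytokinin N-glucosyltransferases went opposite ways, UGT76C2 being 0.93 ± 0.17 higher in roots and UGT76C1 having a root minus shoot difference of -1.22 ± 0.18. UGT73D1 (0.88 ± 0.20), UGT73B1 (0.64 ± 0.22, adjusted p = 0.0235) and the salicylic acid glucosyltransferase UGT74F1 (0.56 ± 0.15) completed the set.

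Among the genes lower in roots, UGT87A2, a gene linked to flowering time, had 4.55, 4.55 and 5.51 in untreated WT roots, against 8.90, 9.41 and 7.15 in untreated WT shoots. The difference was -3.62 ± 0.46 (adjusted p = 1.14e-06), and the third shoot array stood well below the others. UGT88A1 had 5.83, 6.40 and 6.43 in untreated WT roots, against 9.20, 9.31 and 9.43 in untreated WT shoots, a difference of -3.09 ± 0.23. UGT71B1 differed by -2.70 ± 0.18. UGT84A3, which makes glucose esters of hydroxycinnamic acids, differed by -2.56 ± 0.17, with 4.35 to 5.17 over all root arrays and 7.12 to 7.58 over all shoot arrays. Its neighbours UGT84A1 and UGT84A4, which act on the same kind of acceptor, did not pass, with differences of 0.17 ± 0.18 and 0.33 ± 0.18. In group 85, UGT85A4 (-1.90 ± 0.25), UGT85A5 (-1.57 ± 0.23) and UGT85A2 (-1.42 ± 0.25) were lower in roots, and UGT85A3 and UGT85A7 did not pass. The sterol glucosyltransferase UGT80B1 (-1.56 ± 0.19), the abscisic acid glucosyltransferase UGT71B6 (-1.51 ± 0.26), UGT76E12 (-0.97 ± 0.23), the flavonol rhamnosyltransferase UGT78D1 (-0.94 ± 0.32, adjusted p = 0.0227) and UGT76E11 (-0.75 ± 0.24, adjusted p = 0.0126) were lower in roots too. The root and shoot arrays of UGT78D1 and of UGT76E11 overlapped. The 3 uncalled genes with the widest organ differences were UGT73B5 (-0.44 ± 0.19), UGT84B2 (0.41 ± 0.21) and UGT73C1 (0.34 ± 0.18). With 1 array left out, 3 of the 27 calls could be lost. That of UGT73B1 was lost without the third root array (adjusted p = 0.171) or the first or second shoot array (0.0588 and 0.0924). That of UGT76E11 was lost without the first root array (0.0566) or the second shoot array (0.109). That of UGT78D1 was lost without the first or second root array (0.119 and 0.0738) or the first or second shoot array (0.0686 and 0.0955).

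**Figure D2:**
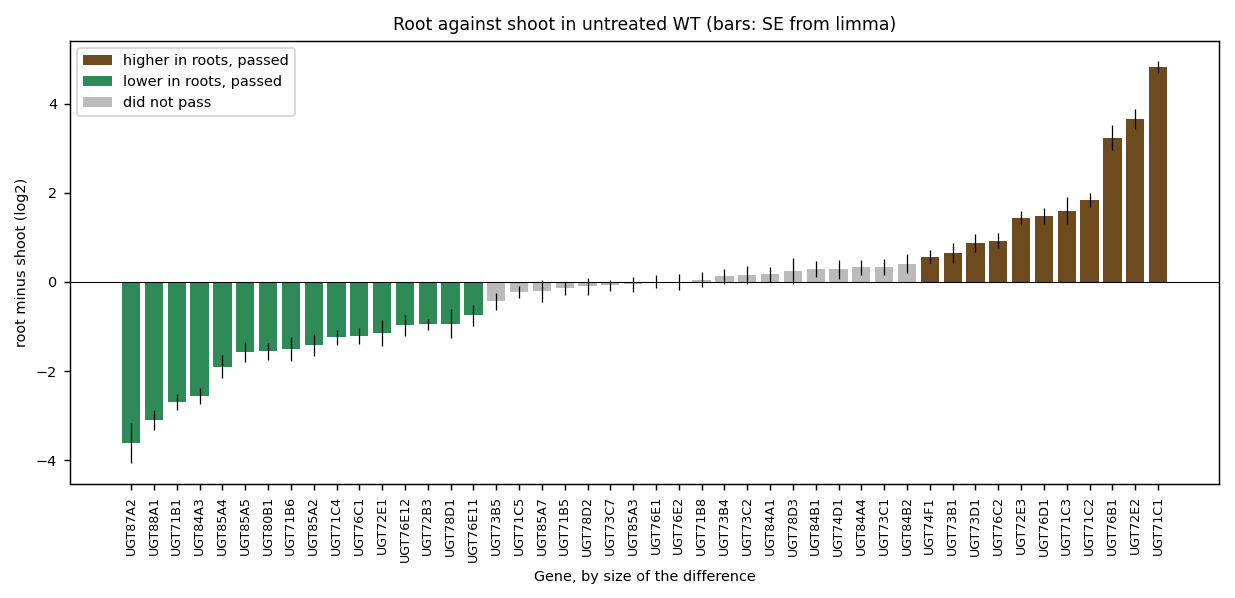
Root minus shoot difference (log2) of each UGT gene in untreated WT, ordered by size, with SE bars from limma and 3 arrays an organ. The brown bars are the 11 genes higher in roots, led by UGT71C1 at 4.82, and the green bars are the 16 lower in roots, led by UGT87A2 at -3.62.

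The design compares cadmium-treated with untreated roots in each genotype. In WT roots 6 of the 46 UGT genes rose and none fell (13%), against 3.91% of all probe sets, of which 372 were higher and 517 lower. The genes that rose were UGT72E1, UGT72E2, UGT72E3, UGT84A4, UGT74D1 and UGT71C1. The first 4 act on lignin precursors and related hydroxycinnamic acids. UGT84A1 and UGT84A3, which act on the same kind of acceptor as UGT84A4, did not pass. The difference was above 0 for 40 of the 46 genes, with a median of 0.23, against 0.02 over all probe sets. That median lay between 0.117 and 0.361 over the alternatives that were run, with 35 to 41 genes above 0.

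UGT72E1 had 8.53, 8.52 and 8.81 in cadmium-treated WT roots, against 7.44, 6.80 and 7.57 in untreated WT roots. Every treated array was above every untreated one, and the difference was 1.35 ± 0.29 (SE, n = 3 each, 2.55-fold, adjusted p = 0.0249). UGT72E2 had 9.31, 9.55 and 9.82 in cadmium-treated WT roots, against 8.55, 8.12 and 8.66 in untreated WT roots, a difference of 1.12 ± 0.27 (2.17-fold, adjusted p = 0.0471). UGT72E3 had 6.66, 6.17 and 6.37 with cadmium, against 5.82, 5.29 and 5.79 untreated, a difference of 0.77 ± 0.18 (1.70-fold, adjusted p = 0.0389). The arrays of both groups did not overlap for any gene of the E subfamily. UGT72B3, the fourth gene of the group, did not pass, with a difference of 0.07 ± 0.14.

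UGT84A4 had 6.94, 6.55 and 7.26 in cadmium-treated WT roots, against 5.72, 5.64 and 6.36 in untreated WT roots, a difference of 1.01 ± 0.22 (2.01-fold, adjusted p = 0.0266). The other 4 genes of group 84 had differences of 0.10 to 0.29 and did not pass. UGT74D1, which glucosylates auxins, had 7.78, 6.99 and 7.26 with cadmium, against 6.52, 6.46 and 6.29 untreated, a difference of 0.92 ± 0.22 (adjusted p = 0.0405). UGT71C1 had 9.87, 9.99 and 10.01 with cadmium, against 9.48, 9.09 and 8.91 untreated, a difference of 0.80 ± 0.17 (adjusted p = 0.0213). In each of these the lowest treated array was above the highest untreated one. Of the genes that did not pass, UGT73D1 (-0.71 ± 0.21, adjusted p = 0.108), UGT87A2 (0.61 ± 0.34) and the flavonol rhamnosyltransferase UGT78D1 (0.49 ± 0.35) had the largest differences.

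These WT root calls lay close to the threshold. With 1 array left out, 0 to 3 of the 6 remained. None remained without the second untreated or the third cadmium array, when the lowest adjusted p was that of UGT71C1, 0.0898 and 0.0825. Only UGT71C1 remained without the first untreated array (0.0151) and without the first cadmium array (0.0396), where UGT73B4 passed too (0.675, adjusted p = 0.047). UGT72E1 (0.0322) and UGT84A4 (0.00999) remained without the third untreated array, and UGT72E3, UGT74D1 and UGT84A4 without the second cadmium array. UGT72E2 passed in no such fit, and no difference changed sign. The summed level of the 3 root markers was 12.6 to 12.9 in cadmium-treated and 11.9 to 12.2 in untreated WT roots, and PYK10, a root beta-glucosidase, was the 1 of the 3 that rose (0.71 ± 0.12). Its part in the UGT differences was not tested.

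In oas-a1.1 roots cadmium raised 1 of the 46 genes (2.17%), against 4.26% of all probe sets. The gene was UGT76D1, with 7.18, 6.42 and 6.42 in cadmium-treated oas-a1.1 roots, against 5.61, 5.95 and 5.90 in untreated oas-a1.1 roots. The difference was 0.85 ± 0.21 (SE, n = 3 each, 1.81-fold, adjusted p = 0.0492). The first treated array was the highest of the 6, and the call was lost without any 1 of the 6 arrays, with adjusted p between 0.0548 and 0.159. In WT roots UGT76D1 had 6.09, 6.13 and 6.39 with cadmium, against 6.27, 6.18 and 5.74 untreated, which overlapped. The median difference of the 46 genes in oas-a1.1 roots was -0.04, against -0.01 over all probe sets, with 21 genes above 0. The root marker sum was 12.6 to 12.7 in cadmium-treated and 11.9 to 12.2 in untreated oas-a1.1 roots, and PYK10 rose there too (0.57 ± 0.12).

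The genes that rose in WT roots had these values in the mutant. UGT72E1 had 8.79, 8.48 and 8.92 in cadmium-treated oas-a1.1 roots, against 8.37, 7.37 and 7.19 in untreated ones, a difference of 1.09 ± 0.29 that did not pass (adjusted p = 0.0630). It passed without the first untreated array, which was the highest of its group (1.45, adjusted p = 0.00727). UGT72E2 had 9.23, 9.23 and 8.56 with cadmium, against 9.20, 9.93 and 10.23 untreated, a difference of -0.78 ± 0.27 (adjusted p = 0.178). Its groups overlapped, and the cadmium arrays were on the whole the lower ones. Without that same untreated array the difference was -1.07, with an adjusted p of 0.0457. UGT84A4 had 6.26, 6.07 and 6.60 with cadmium, against 6.56, 6.57 and 6.60 untreated, a difference of -0.27 ± 0.22. UGT72E3 (-0.09 ± 0.18), UGT74D1 (0.34 ± 0.22) and UGT71C1 (0.27 ± 0.17) did not pass. UGT87A2 had a difference of 0.91 ± 0.34 (adjusted p = 0.230) and UGT73D1 one of -0.71 ± 0.21 (adjusted p = 0.107). UGT73D1 passed without the first cadmium array (-0.94, adjusted p = 0.0303).

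**Figure D3:**
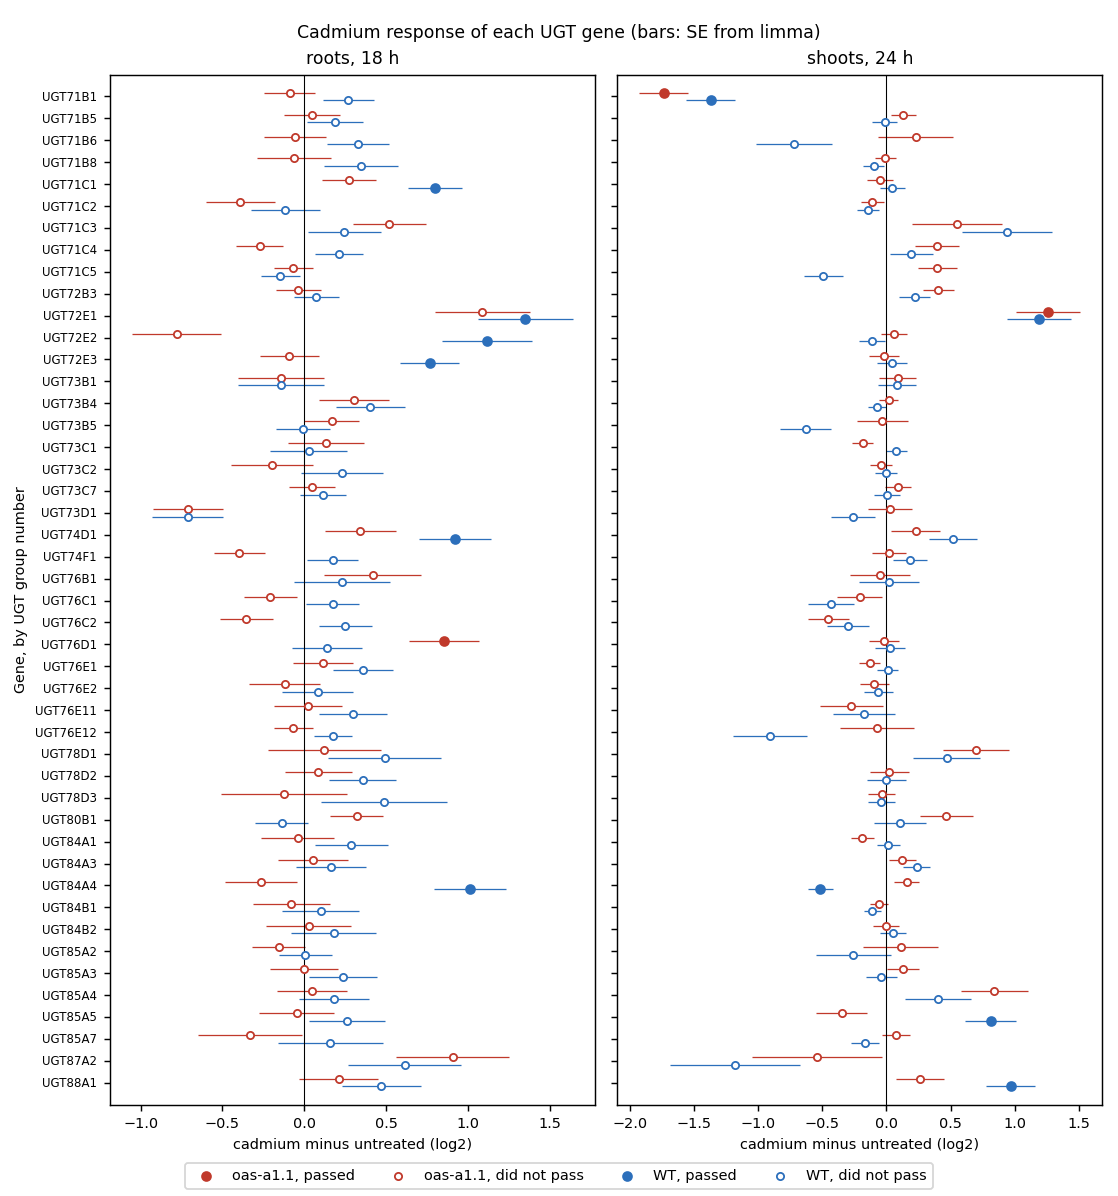
Cadmium minus untreated difference (log2) of each of the 46 UGT genes in roots at 18 h (left) and shoots at 24 h (right), with SE bars from limma. Red points are oas-a1.1 and blue points WT (3 arrays a group), and filled points passed the test. In roots 6 blue points and 1 red point are filled, and in shoots UGT71B1 lies furthest left and UGT72E1 furthest right in both genotypes.

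Whether the root response differed between the genotypes was tested as the cadmium difference in oas-a1.1 minus that in WT. No UGT gene passed in limma, against 0.747% of all probe sets. Of the 22746 probe sets, 2032 had an unadjusted p under 0.05, and of the 46 genes 8 did. UGT72E2 had the largest value, -1.90 ± 0.39 (95% interval -2.75 to -1.05, adjusted p = 0.0566). UGT84A4 followed with -1.28 ± 0.31 (interval -1.96 to -0.59, adjusted p = 0.103) and UGT72E3 with -0.86 ± 0.25 (adjusted p = 0.206). UGT72E2 passed in the fit of all 24 arrays (adjusted p = 0.00171), which shares the spread of a gene with the shoot arrays. Its group SDs were 0.0493 to 0.179 in shoots, against 0.255 to 0.53 in roots. It also passed without the first untreated oas-a1.1 array (-2.19, adjusted p = 0.0264). UGT84A4 passed without the third untreated WT array (-1.50, adjusted p = 0.0316). Further alternatives in which a gene passed are given at the end. Over the 46 genes the value was below 0 for 36, with a median of -0.25, against -0.02 over all probe sets. The 2 cadmium comparisons and the 2 genotype comparisons in roots are built from the same 4 groups, so this shift is not separate from the WT root values above.

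In shoots cadmium changed 2 of the 46 genes in oas-a1.1 (4.35%), against 2.18% of all probe sets, and 5 in WT (10.9%), against 5.58%. UGT71B1 fell and UGT72E1 rose in both genotypes. UGT88A1 and UGT85A5 rose, and UGT84A4 fell, in WT. The median difference of the 46 genes was 0.02 in oas-a1.1 and -0.00165 in WT, against 0 and 0.0033 over all probe sets.

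The fall of UGT71B1 was the largest cadmium difference of the family. In oas-a1.1 shoots it had 6.31, 6.55 and 6.22 with cadmium, against 7.95, 8.33 and 8.02 untreated, a difference of -1.74 ± 0.19 (SE, n = 3 each, 3.34-fold lower, adjusted p = 0.00134). In WT shoots it had 6.32, 5.79 and 5.86 with cadmium, against 7.01, 7.39 and 7.69 untreated, a difference of -1.37 ± 0.19 (2.59-fold lower, adjusted p = 0.0023). No treated array reached an untreated one in either genotype. Both calls remained with any 1 array of their groups left out, with adjusted p between 0.00246 and 0.0137. They were lost when the second array of every shoot group was left out together, with adjusted p of 0.0566 in oas-a1.1 and 0.0965 in WT and differences of -1.72 and -1.26. In roots the 12 arrays of UGT71B1 lay between 4.49 and 5.26, with cadmium differences of -0.09 ± 0.15 in oas-a1.1 and 0.27 ± 0.15 in WT. Whether a fall could show at that low root level was not tested.

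UGT72E1 had 9.66, 8.70 and 9.20 in cadmium-treated oas-a1.1 shoots, against 7.69, 8.37 and 7.71 in untreated ones, a difference of 1.26 ± 0.25 (2.40-fold, adjusted p = 0.0272). In WT shoots it had 9.32, 9.62 and 9.90 with cadmium, against 8.56, 8.24 and 8.46 untreated, a difference of 1.19 ± 0.25 (2.29-fold, adjusted p = 0.0190). Treated arrays were above untreated ones throughout in both genotypes, though the second arrays of oas-a1.1 lay near each other. With 1 array left out the adjusted p ran from 0.0207 to 0.105 in oas-a1.1, passing only without the second treated or the second untreated array. In WT it ran from 0.0240 to 0.0821, passing only without the first treated or the third untreated array. The 2 monolignol genes UGT72E2 and UGT72E3 stayed at 4.55 to 4.88 and 4.01 to 4.44 over all shoot arrays.

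UGT88A1 had 10.60, 10.26 and 9.99 in cadmium-treated WT shoots, against 9.20, 9.31 and 9.43 in untreated WT shoots, a difference of 0.97 ± 0.19 (1.96-fold, adjusted p = 0.0132). UGT85A5 had 6.85, 7.40 and 6.75 with cadmium, against 6.05, 6.54 and 5.97 untreated, a difference of 0.81 ± 0.20 (1.76-fold, adjusted p = 0.0388). UGT84A4 had 5.13, 5.14 and 4.92 with cadmium, against 5.55, 5.53 and 5.66 untreated, a difference of -0.52 ± 0.10 (1.43-fold lower, adjusted p = 0.0104). The groups did not overlap for any of these. The call of UGT84A4 remained with any 1 WT array left out (adjusted p of 0.0217 to 0.0379), and was lost when the first, the second or the third array of every shoot group was left out together (0.108, 0.119 and 0.0938) and in the fit of all 24 arrays. The call of UGT88A1 was lost without the first (0.0598) or second (0.0512) untreated array, and that of UGT85A5 without the first or the third untreated array (0.141 and 0.0884) or the first or second treated one (0.0581 and 0.139).

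In oas-a1.1 shoots the same 3 genes did not pass. UGT88A1 had 10.17, 10.17 and 9.57 with cadmium, against 9.92, 9.53 and 9.67 untreated, and these overlapped. UGT85A5 had 7.05, 7.01 and 6.58 with cadmium, against 7.18, 7.37 and 7.14 untreated, a difference of -0.35 ± 0.20. UGT84A4 had 5.31, 5.09 and 5.21 with cadmium, against 5.16, 4.93 and 5.05 untreated, a difference of 0.16 ± 0.10. All treated arrays of UGT85A5 were below the untreated ones here, and above them in WT, while those of UGT84A4 overlapped in the mutant. The other genes with large differences were UGT85A4 (0.84 ± 0.26, adjusted p = 0.144), UGT78D1 (0.70 ± 0.26) and UGT71C3 (0.55 ± 0.35) in oas-a1.1. UGT85A4 passed without the first untreated oas-a1.1 array (1.17, adjusted p = 0.0142).

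The third array of untreated WT shoots stood apart for several genes, and it was also the one with the high 25S value. UGT87A2 had 7.72, 7.03 and 7.16 in cadmium-treated WT shoots, against 8.90, 9.41 and 7.15 in untreated WT shoots. UGT76E12 had 4.18, 3.92 and 4.21 with cadmium, against 5.46, 5.35 and 4.23 untreated. UGT71B6 had 5.42, 5.0 and 4.97 with cadmium, against 6.20, 6.36 and 5.0 untreated. For these 3 genes the third untreated array lay among or next to the treated ones. UGT73B5 had 5.59, 5.74 and 5.74 with cadmium, against 6.35, 6.80 and 5.81 untreated. The cadmium differences of UGT87A2 (-1.18 ± 0.50), UGT76E12 (-0.91 ± 0.29), UGT71B6 (-0.72 ± 0.30) and UGT73B5 (-0.63 ± 0.20) did not pass. Without that array all 4 passed as lower, at -1.85 (UGT87A2, adjusted p = 0.0127), -1.30 (UGT76E12, 0.00394), -1.15 (UGT71B6, 0.00395) and -0.89 (UGT73B5, 0.00652), and 8 genes passed in all. The share of all probe sets passing without that array was not counted. UGT71C3 had a difference of 0.94 ± 0.35 that passed without the second treated array (1.45, adjusted p = 0.00561). The summed level of the 6 photosynthesis genes was 14.64 to 14.75 in cadmium-treated and 14.35 to 14.59 in untreated oas-a1.1 shoots. In WT shoots it was 14.74 to 15.03 with cadmium and 14.65 to 14.69 untreated. LHCB4.2, a light-harvesting protein gene, was the 1 of the 6 that rose, by 0.93 ± 0.10 in oas-a1.1 and 0.62 ± 0.10 in WT. The part of these in the UGT differences was not tested. With arrays of a 25S value of 7 or more alone, which leaves 1 array each of cadmium-treated oas-a1.1 and untreated WT shoots, no shoot call remained.

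For the difference between genotypes in the shoot response, none of the 46 genes passed in limma, against 0.444% of all probe sets. Of the 22746 probe sets, 2777 had an unadjusted p under 0.05, and of the 46 genes 6 did. The largest values were those of UGT85A5 (-1.16 ± 0.28, 95% interval -1.79 to -0.54, adjusted p = 0.115), UGT71B6 (0.95 ± 0.42, adjusted p = 0.389) and UGT71C5 (0.89 ± 0.22, adjusted p = 0.116). UGT76E12 had 0.83 ± 0.41 (adjusted p = 0.453), and UGT84A4 had 0.67 ± 0.14, with the lowest adjusted p of the family (0.0607). Without the third untreated WT array 3 genes passed, UGT71B6 (1.38, adjusted p = 0.0150), UGT76E12 (1.23, 0.0381) and UGT84A4 (0.63, 0.0499). For UGT71B1 the value was -0.37 and for UGT72E1 it was 0.07, neither passing.

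**Figure D4:**
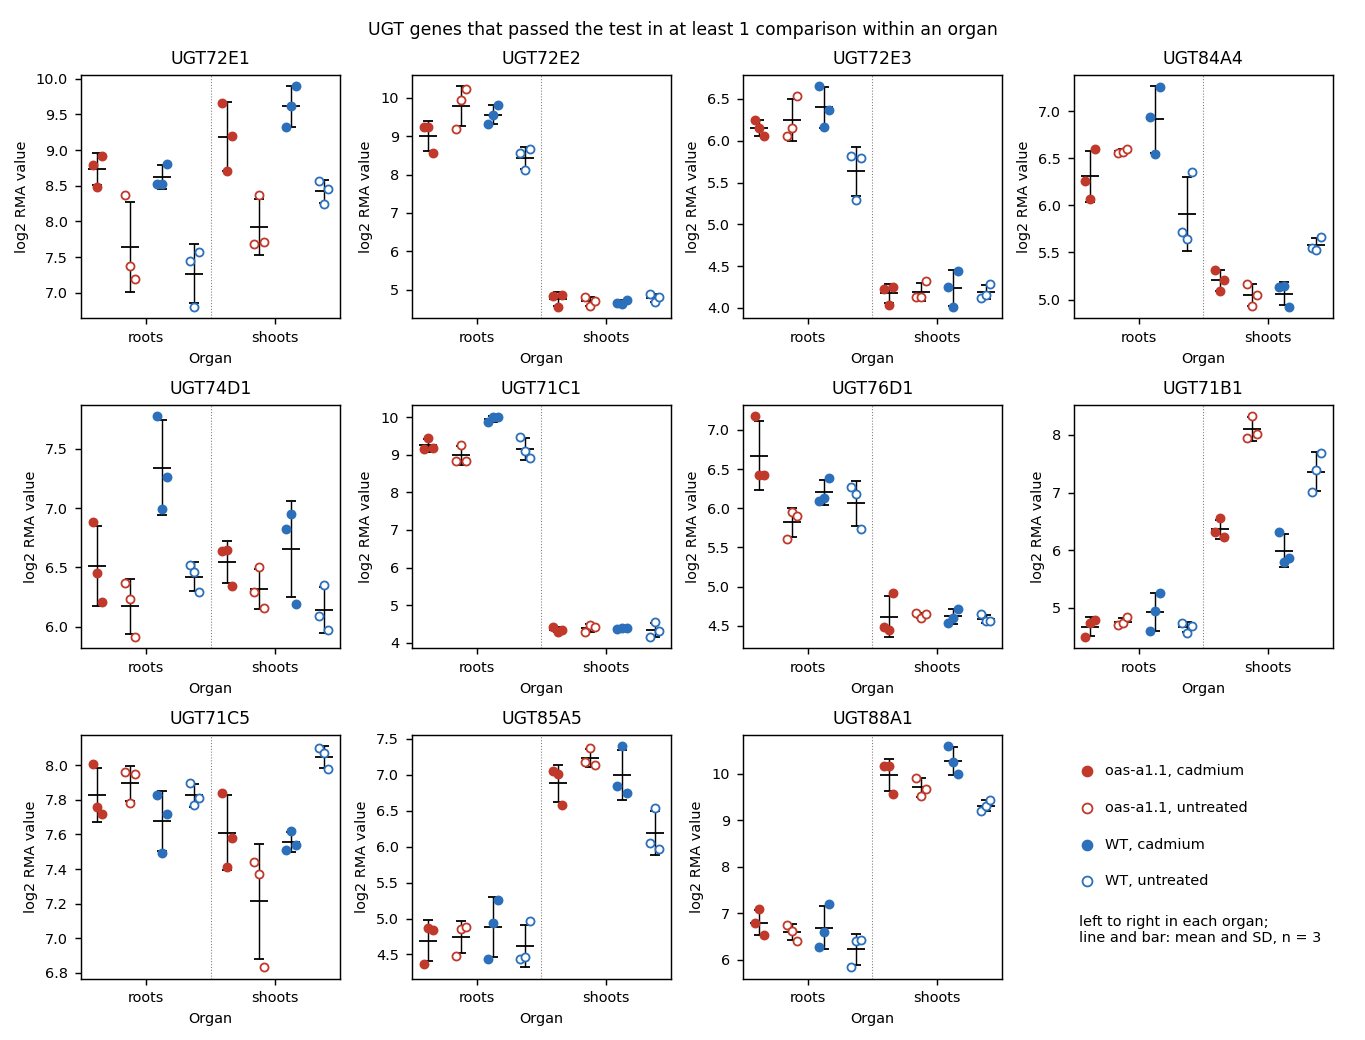
Log2 RMA value of each array for the 11 UGT genes that passed in at least 1 comparison within an organ. Red is oas-a1.1 and blue is WT, filled points are cadmium-treated and open points untreated, and lines and bars are the mean and SD of 3 arrays. UGT71B1 is lower with cadmium in both shoot genotypes, cadmium-treated arrays of UGT72E1 lie above the untreated ones in all 4 pairs, and UGT72E2 has its highest mean in untreated oas-a1.1 roots.

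The mutant was set against WT in each organ and treatment. In untreated shoots 3 of the 46 UGT genes differed (6.52%), against 1.46% of all probe sets. UGT85A5 was higher, and UGT71C5 and UGT84A4 were lower, in oas-a1.1. UGT85A5 had 7.18, 7.37 and 7.14 in untreated oas-a1.1 shoots, against 6.05, 6.54 and 5.97 in untreated WT shoots, a difference of 1.04 ± 0.20 (SE, n = 3 each, 2.06-fold, adjusted p = 0.0319). UGT71C5 had 7.44, 7.37 and 6.83 in oas-a1.1, against 8.10, 8.07 and 7.98 in WT, a difference of -0.84 ± 0.15 (1.79-fold lower, adjusted p = 0.0265). UGT84A4 had 5.16, 4.93 and 5.05 in oas-a1.1, against 5.55, 5.53 and 5.66 in WT, a difference of -0.53 ± 0.10 (1.45-fold lower, adjusted p = 0.0252). No array of 1 genotype reached those of the other. UGT85A5 and UGT84A4 also passed in cadmium-treated against untreated WT shoots, in the same directions, and both comparisons use the same untreated WT arrays. The 25S value was 8.13, 9.44 and 10.36 in untreated oas-a1.1 shoots, against 4.95, 5.68 and 11.07 in untreated WT shoots. With the 25S level as a covariate UGT71C5 lost its call, and UGT85A5 and UGT84A4 kept theirs. In the fit of the compared groups alone all 3 calls were lost.

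Of the genes that did not pass in untreated shoots, UGT85A4 had 6.96, 6.02 and 5.93 in oas-a1.1, against 7.27, 7.87 and 7.11 in WT (-1.11 ± 0.26, adjusted p = 0.0633). UGT71B6 had 4.89, 4.63 and 4.76 in oas-a1.1, against 6.20, 6.36 and 5.0 in WT (-1.09 ± 0.30, adjusted p = 0.0994). UGT71B1 was at 7.95, 8.33 and 8.02 in oas-a1.1, against 7.01, 7.39 and 7.69 in WT (0.74 ± 0.19, adjusted p = 0.0864). All 3 were separated between the genotypes without passing over all probe sets. The 3 calls were lost together without the first untreated WT array and without the second or the third oas-a1.1 array, with adjusted p of 0.0533 to 0.134, and UGT85A5 alone passed without the second WT array (0.0476). All 3 remained, and 7 genes passed in all, without the third WT array, UGT71B6 (-1.52, adjusted p = 0.00195), UGT71B1 (0.90, 0.0316), UGT73B5 (-0.85, 0.0138) and UGT85A4 (-1.27, 0.0389) among them. The share of all probe sets passing in that fit was not counted. Without the first oas-a1.1 array UGT85A4 passed as well (-1.44, adjusted p = 0.0072). LHCB4.2 was lower in untreated oas-a1.1 shoots (-0.64 ± 0.10), and its part was not tested.

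In cadmium-treated shoots no UGT gene differed between the genotypes in limma, against 0.154% of all probe sets. An unadjusted p under 0.05 was found for 2048 of the 22746 probe sets and for 1 of the 46 genes. That gene was UGT85A4, with 7.34, 6.98 and 7.12 in oas-a1.1, against 7.74, 7.93 and 7.79 in WT (-0.67 ± 0.26, adjusted p = 0.441). UGT87A2 (0.55 ± 0.50) and UGT71C3 (-0.45 ± 0.35) had the next largest differences. UGT85A5, UGT71C5 and UGT84A4 differed by -0.12, 0.05 and 0.14 here.

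In untreated roots no UGT gene passed in limma, against 0.356% of all probe sets. Of the 22746 probe sets, 1544 had an unadjusted p under 0.05, and of the 46 genes 4 did. UGT72E2 came nearest, with 9.20, 9.93 and 10.23 in untreated oas-a1.1 roots, against 8.55, 8.12 and 8.66 in untreated WT roots, a difference of 1.34 ± 0.27 (95% interval 0.74 to 1.95, adjusted p = 0.0783). Every mutant array was above every WT array. It passed without the first oas-a1.1 array (1.64, adjusted p = 0.0192), in the fit of all 24 arrays (0.00259) and among the upper 60% of probe sets (0.0336). The fit of all 24 arrays shares the spread of a gene with the shoot arrays. The group SDs of UGT72E2 were 0.0493 to 0.179 in shoots, against 0.255 to 0.53 in roots. UGT84A4 (0.67 ± 0.22, adjusted p = 0.394) and UGT72E3 (0.61 ± 0.18, adjusted p = 0.298) followed, likewise with no overlap between the genotypes. Over the 46 genes the difference was above 0 for 33, with a median of 0.12, against 0.01 over all probe sets.

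In cadmium-treated roots no UGT gene passed in limma, against 1.74% of all probe sets. Of the 22746 probe sets, 2453 had an unadjusted p under 0.05, and of the 46 genes 6 did. UGT74D1 had 6.88, 6.45 and 6.21 in cadmium-treated oas-a1.1 roots, against 7.78, 6.99 and 7.26 in cadmium-treated WT roots (-0.83 ± 0.22, adjusted p = 0.0994). UGT71C1 had 9.14, 9.45 and 9.17 in oas-a1.1, against 9.87, 9.99 and 10.01 in WT (-0.70 ± 0.17, adjusted p = 0.0644). Both were lower on every mutant array. With the replicate number as a block over all 12 root arrays, these 2 genes passed as lower in limma. UGT74D1 had an adjusted p of 0.0191 and UGT71C1 one of 0.0465. That block also spans the untreated roots, where the deviations of the second arrays of the 2 genotypes correlated at -0.111. Pairing of the arrays was not shown. UGT76B1 had 8.86, 9.66 and 8.82 in oas-a1.1, against 8.94, 8.02 and 8.24 in WT, a difference of 0.71 ± 0.295 with overlapping arrays. The difference was above 0 for 12 of the 46 genes, with a median of -0.16, against -0.01 over all probe sets.

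**Figure D5:**
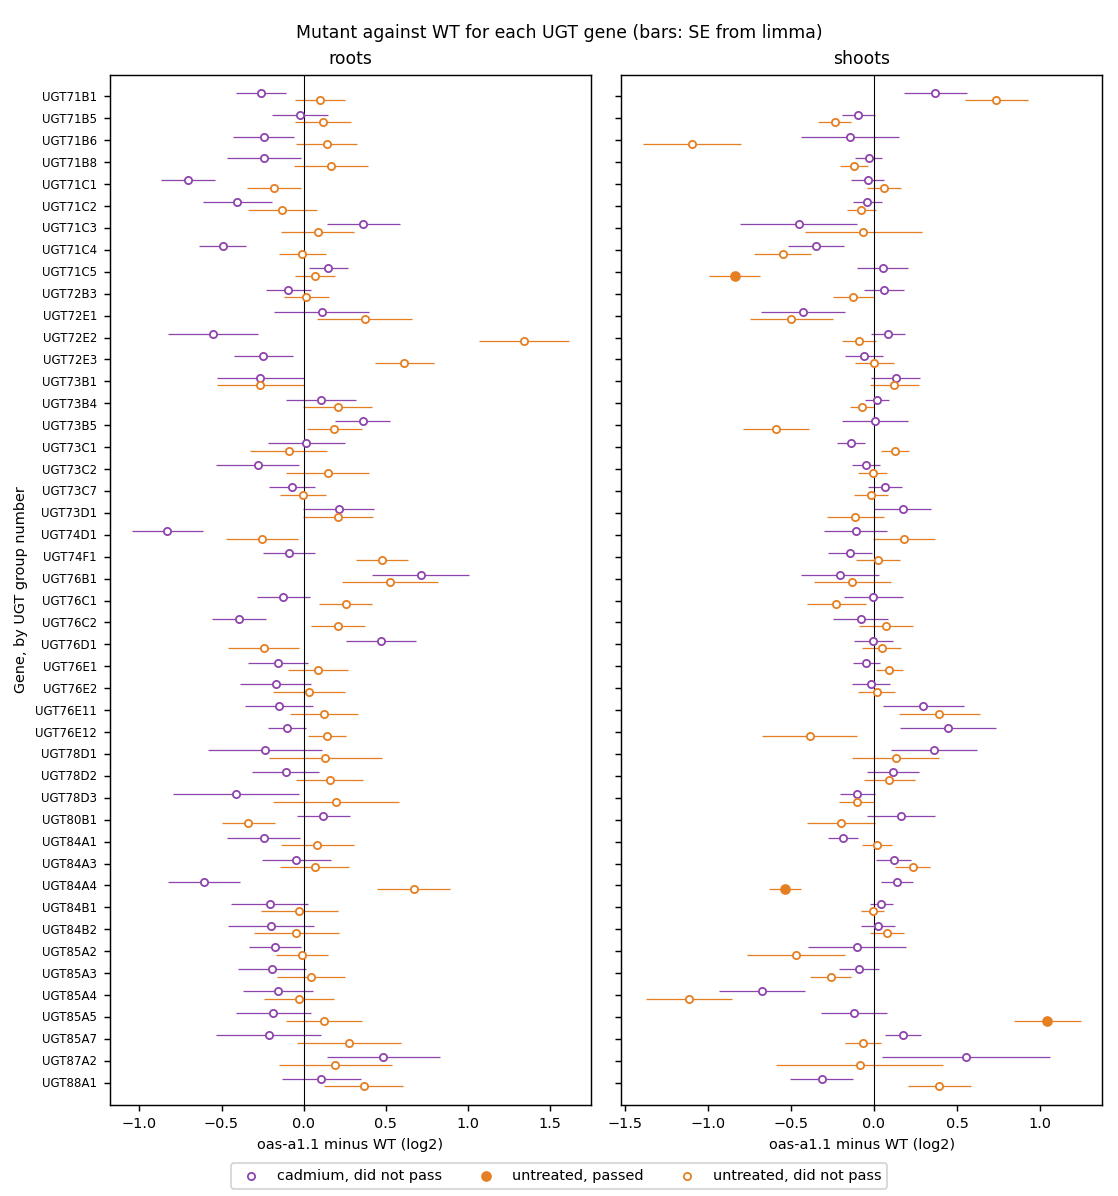
The oas-a1.1 minus WT difference (log2) of each of the 46 UGT genes in roots (left) and shoots (right), with SE bars from limma. Purple points are cadmium-treated and orange points untreated plants (3 arrays a group), and filled points passed. The 3 filled points are UGT85A5 at 1.04, UGT71C5 at -0.84 and UGT84A4 at -0.53 in untreated shoots.

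The effect of the mutation was also compared between untreated roots and untreated shoots. It differed for 3 of the 46 genes (6.52%), against 0.761% of all probe sets. UGT72E2 had a value of 1.43 ± 0.31 (root effect minus shoot effect, adjusted p = 0.0312), from 1.34 in roots and -0.09 in shoots. Its 12 shoot arrays lay at 4.55 to 4.88, and whether a shoot effect could show at that low level was not tested. The root effect did not pass on its own for this or any other UGT gene. UGT84A4 had 1.20 ± 0.25 (adjusted p = 0.0262), from 0.67 in roots and -0.53 in shoots. UGT71C5 had 0.91 ± 0.20 (adjusted p = 0.0338), from 0.07 in roots and -0.84 in shoots. UGT71B6 (1.23 ± 0.37), UGT85A4 (1.09 ± 0.35) and UGT85A5 (-0.92 ± 0.32) did not pass. No call remained without the second untreated WT root array, the first or second WT shoot array, or the second or the third oas-a1.1 root array, and 6 genes passed without the third WT shoot array. The share of all probe sets passing in these fits was not counted.

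Of the 46 genes, 11 passed in at least 1 of the 8 comparisons within an organ and 35 in none. Of all probe sets, 13.2% passed in at least 1 of the 8. Cadmium raised 9 of the 46 genes in at least 1 of its 4 comparisons, against 6.59% of all probe sets, and lowered 2, against 6.27%, UGT84A4 being in both counts. A mean under 5 in all 8 groups was found for 11 of the 46 genes, namely UGT71B5, UGT71B8, UGT73B4, UGT73C1, UGT73C2, UGT73C7, UGT76E1, UGT84A1, UGT84B1, UGT84B2 and UGT85A3. No detection calls were used here, so these low values do not show that a gene was off.

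The other members varied as follows. In group 71, UGT71B5 ranged over 4.63 to 5.26 in roots and 4.56 to 5.05 in shoots, UGT71B8 over 4.40 to 5.23 and 4.25 to 4.60, and UGT71C4 over 6.93 to 7.74 and 8.00 to 9.05. UGT71B6 stayed at 4.22 to 5.06 in roots and reached 6.36 in shoots. UGT71C5 kept to 7.49 to 8.01 over all root arrays. These 5 genes had no cadmium call in either organ.

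None of the 7 genes of group 73 passed in a comparison within an organ. UGT73B4 and UGT73C1, both known to conjugate trinitrotoluene, ranged over 4.14 to 5.16 and 4.03 to 4.84 in roots, and over 4.09 to 4.27 and 3.95 to 4.38 in shoots. UGT73B5 lay at 5.59 to 6.43 in roots and 5.57 to 6.80 in shoots, UGT73B1 at 5.20 to 6.49 and 5.19 to 5.86, UGT73C2 at 3.85 to 4.67 and 3.84 to 4.09, and UGT73C7 at 3.96 to 4.51 and 4.11 to 4.50. UGT73D1 was the member with the widest spread in roots. It had 4.65, 4.81 and 4.90 in cadmium-treated WT roots, against 5.48, 5.44 and 5.58 in untreated WT roots.

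In group 76, all 8 genes had a cadmium difference above 0 in WT roots (0.08 to 0.36), as did 40 of all 46 genes. All 8 were below 0 in oas-a1.1 shoots (-0.45 to -0.02), as were 22 of all 46. None of the 8 passed in these 2 comparisons. The cytokinin gene UGT76C2 ranged over 5.90 to 6.79 in roots and 4.84 to 5.71 in shoots, and UGT76C1 over 4.71 to 5.44 and 5.40 to 6.43. UGT76E1 (3.94 to 4.68 in roots, 3.99 to 4.30 in shoots), UGT76E2 (4.66 to 5.47 and 4.88 to 5.32) and UGT76E11 (4.03 to 4.83 and 4.58 to 5.78) had no call within an organ. The flavonol genes of group 78 had cadmium differences of 0.36 to 0.49 in WT roots, none passing. The glucosyltransferase UGT78D2 ranged over 5.63 to 6.50 in roots and 5.79 to 6.30 in shoots, and the arabinosyltransferase UGT78D3 over 4.29 to 5.81 and 4.23 to 4.61.

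In the other groups, UGT74F1 ranged over 5.09 to 6.10 in roots and 4.51 to 5.03 in shoots, and UGT80B1 over 5.22 to 5.94 and 6.90 to 7.99. UGT84A1 ranged over 4.28 to 5.19 in roots and 4.15 to 4.54 in shoots, the auxin glucosyltransferase UGT84B1 over 4.27 to 5.26 and 4.30 to 4.51, and UGT84B2 over 4.21 to 5.16 and 4.11 to 4.44. UGT85A2 ranged over 6.32 to 6.91 in roots and 7.37 to 8.76 in shoots, UGT85A3 over 4.52 to 5.41 and 4.44 to 5.02, and UGT85A7 over 4.50 to 5.82 and 4.87 to 5.34. Several members are close relatives that lie side by side, such as UGT84A1, UGT84A3 and UGT84A4, and binding of a probe set to a related transcript was not tested. None of the 46 probe set names carries the suffix that marks shared probes.

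Genes of connected pathways were looked up by symbol in the platform annotation and counted beside the family. Listed genes whose symbols were not found there were left out, so the counts cover only part of each pathway. No gene listed for transport of conjugates was found. Of the 5 genes found for phenylpropanoid and flavonoid synthesis, none passed with cadmium in WT roots, against 3.91% of all probe sets. In oas-a1.1 roots 1 of the 5 rose, where 4.26% of all probe sets passed in either direction. That gene was CCR2, a cinnamoyl-CoA reductase of the monolignol branch, at 1.97 ± 0.28 (adjusted p = 0.00263) in oas-a1.1 roots and 0.90 ± 0.28 (adjusted p = 0.126) in WT roots. It was also higher in cadmium-treated oas-a1.1 than WT roots (1.62 ± 0.28, adjusted p = 0.0191). The hydroxycinnamoyl transferase gene HCT had differences of -0.63 ± 0.17 in oas-a1.1 roots and -0.30 ± 0.17 in WT roots, neither passing.

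Of the 14 genes found for reactive chemicals, 13 of them glutathione S-transferases, cadmium raised 2 in oas-a1.1 roots and 3 in WT roots. It raised 1 in oas-a1.1 shoots and 2 in WT shoots, and lowered none. Of all probe sets, 4.26% passed in oas-a1.1 roots, 3.91% in WT roots, 2.18% in oas-a1.1 shoots and 5.58% in WT shoots, in either direction. The median difference of the 14 genes was -0.01 in oas-a1.1 roots, 0.06 in WT roots, -0.07 in oas-a1.1 shoots and 0.05 in WT shoots. GSTU27 rose in the roots of both genotypes (0.79 ± 0.17 in oas-a1.1, 1.06 ± 0.17 in WT) and GSTU20 in the shoots of both (1.22 ± 0.27 in oas-a1.1, 1.28 ± 0.27 in WT). GSTU25 rose in oas-a1.1 roots (1.77 ± 0.27), ATGSTF13 (0.97 ± 0.16) and GSTU18 (0.49 ± 0.11) in WT roots, and GSTU16 in WT shoots (0.96 ± 0.17). ATGSTF13 was lower in cadmium-treated oas-a1.1 than WT roots (-0.84 ± 0.16). USP, the 1 gene of UDP-sugar supply found by symbol, did not pass in any comparison.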

How the data were processed

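Total RNA of each sample was hybridised to 1 ATH1 array. The authors deposited log2 values for each probe set, made with RMA and the affy package per the submitters' processing notes, with versions not given in the sources used here. The 64 control probe sets were left out. Symbols came from the platform annotation, in which 8730 probe sets list no gene and 503 list several, and loci from the reference gene table.

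Each organ's 12 arrays were fitted with 4 group means in limma 3.58.1 (R 4.3.3), and the organ contrasts on all 24 arrays. P-values are two-sided and were adjusted by Benjamini-Hochberg over all 22746 probe sets, with a threshold of 0.05. Per-array depth does not apply, and the number of arrays limits the precision. The code was tested on simulated data.

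The UGT genes and the pathway and marker lists were chosen with earlier results of these data known. In each comparison the text names every UGT gene that passed and up to 3 others with the largest differences. Genes named beyond these, such as those that passed with 1 array left out, were chosen after their values were seen.

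The alternatives were a filter, median centring, repeated quantile normalization, other sets of arrays, a trend and robust prior, the replicate number as a block, the 25S level as a covariate, and arrays left out; leaving out a replicate number in every group and keeping arrays with a 25S value of 7 or more were chosen after seeing the data. For the genotypes in cadmium-treated roots the deviations of same-numbered arrays correlated at r = 0.639, 0.111 and 0.218. All 3 r were above 0 in other comparisons too, such as the genotypes in cadmium-treated shoots (0.074, 0.304 and 0.487). The block was run for every comparison as an alternative, and these values do not show pairing.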

Additional observations from a re-analysis of the deposited data

Results flagged for a closer look

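The effect of the mutation differed between untreated roots and untreated shoots by a test of the difference for 3 genes. The root effect minus the shoot effect was 1.43 for UGT72E2, 1.2 for UGT84A4 and 0.91 for UGT71C5 on the log2 scale, with limma adjusted p of 0.0312, 0.0262 and 0.0338. The root effect alone passed for none of them. All shoot arrays of UGT72E2 lay at 4.55 to 4.88, and whether a shoot effect could show at that low level was not tested. For UGT84A4 every untreated oas-a1.1 array lay above every WT array in roots and below every WT array in shoots, which also marks this value of 1.2.

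In shoots, all 3 cadmium-treated oas-a1.1 arrays of UGT85A5 lay below the untreated oas-a1.1 arrays, a difference of -0.35 ± 0.20 that did not pass, and all 3 cadmium-treated WT arrays lay above the untreated WT arrays (0.81 ± 0.20, adjusted p = 0.0388). The oas-a1.1 response minus the WT response was -1.16, and limma's test of that difference did not pass (adjusted p = 0.115). The groups of 3 arrays were too small to look for single arrays far from the rest.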

How the results depend on the processing

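The differences that passed in the main fit were followed over all alternatives, which gave 829 values. None of the 829 changed sign, 632 kept the call and 197 lost it. Most root against shoot calls were kept in every alternative. Within an organ, the calls were kept in 4 of 18 alternatives (UGT76D1, cadmium in oas-a1.1 roots) to 16 of 18 (UGT71B1, cadmium in the shoots of both genotypes). Of 230 alternative counts of UGT genes passing, 147 stayed within 1.5 times the main count. With 1 array, or 1 replicate number in all groups, left out, the genes passing numbered 0 to 1 for oas-a1.1 against WT in untreated roots (main 0), 0 to 7 in untreated shoots (main 3), 0 in cadmium roots and cadmium shoots, 0 to 3 for cadmium in WT roots (main 6), 0 to 2 in oas-a1.1 roots (main 1), 0 to 8 in WT shoots (main 5), 1 to 2 in oas-a1.1 shoots (main 2), 0 to 1 and 0 to 3 for the difference in response in roots and shoots (main 0), 22 to 28 for root against shoot (main 27) and 0 to 6 for the mutation effect between organs (main 3).

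Under the filter to the upper 60% of probe sets, the count was 1 for the mutant in untreated roots, 2 for cadmium in oas-a1.1 roots and 1 for the root difference in response. Median centring gave 1 for the mutant in cadmium roots, 2 for cadmium in oas-a1.1 roots and 1 for the root difference in response. Repeated quantile normalization and the 25S covariate each gave 2 for the mutant in cadmium roots. The fit of all 24 arrays gave 1 and 2 for the mutant in untreated and cadmium roots, 5 in untreated shoots, 4 for cadmium in oas-a1.1 roots, and 3 and 1 for the difference in response in roots and shoots. In that fit each gene has 1 spread over both organs, also where it varied less in 1 of them. The compared groups alone gave 0 for the mutant in untreated shoots, 3 for cadmium in WT roots, 0 in oas-a1.1 roots, 1 in oas-a1.1 shoots and 0 for the mutation effect between organs; fewer arrays entered that fit. The trend and robust prior gave 1 for the mutant in untreated roots and 1 for the root difference in response. Arrays with a 25S value of 7 or more gave 1 for the mutant in untreated roots, 0 in untreated shoots, 2 for cadmium in oas-a1.1 roots, 0 in the shoots of both genotypes and 0 for the mutation effect between organs, again with fewer arrays.

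The replicate block gave 2 for the mutant in cadmium roots, and 1 each for the difference in response in roots (UGT84A4, adjusted p = 0.0182) and shoots (UGT85A5, 0.0251); elsewhere its counts were within 1.5 times the main ones, though in oas-a1.1 roots it called UGT72E1 in place of UGT76D1. The numbers were not shown to pair the arrays in any comparison. The causes of these moves were not tested, and the share of all probe sets passing was not counted under the alternatives. No gene had several probe sets or a shared-probe suffix, so those alternatives could not change a value.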
